A study of Arabidopsis thaliana with 10 samples.

Results

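The probe sets described here were those with a lower signal in rosettes of the ascorbate mutant vtc1 and a higher signal in rosettes of abi4-102, each against wild-type Col 0. A probe set is the group of short array oligonucleotides that reads 1 transcript, and its intensity is the brightness summarised over them. Members were chosen on log2(intensity + 1) with control probe sets left out. The mean of vtc1 had to lie more than 0.3 below that of wild type, the mean of abi4-102 more than 0.3 above it, and the mean intensity over all arrays above 30. Of 22746 probe sets, 68 met this rule, out of 12929 that passed the intensity minimum. Among the 68, 33 carried 1 gene, 1 carried several genes and 34 had no gene in the annotation used here. The direction and size of the changes in both mutants are therefore what chose the members. They are given as a description. The calls given below, from a model across all probe sets, are no test of the members, since the rule used the same contrasts.

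The study compared 3 genotypes of Arabidopsis thaliana: wild type Col 0 (3 arrays), vtc1, labelled vitamin C defective 1 (4 arrays), and abi4-102, labelled aba insensitive 4 (3 arrays). All plants grew on compost in 8 h days without a named treatment, and whole rosettes were frozen at 42 days. Replicates are called biological, but it is not stated if each was 1 plant or a pool, so the p-values measure only the spread between these samples.

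VTC1 encodes an enzyme that makes GDP-mannose, the activated sugar from which plants build ascorbate, and its mutants hold less ascorbate in their leaves. ABI4 encodes a transcription factor of the AP2/ERF family, known for its part in abscisic acid and sugar signalling and in signalling from the chloroplast to the nucleus. No probe set was annotated to VTC1 or ABI4 alone, and the labels could not be checked by the level of either gene.

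The arrays were alike in brightness and in rank. Array medians ran from 42.6 to 45.6 (intensity, 10 arrays), and replicates correlated at 0.997 to 0.999 on the log2 scale. The hybridization spike-in controls averaged 8.82 ± 0.05 (log2, SD, n = 3) in wild type, 8.79 ± 0.04 (n = 3) in abi4-102 and 8.59 ± 0.12 (n = 4) in vtc1. Scaling on them moved the median change of all probe sets in vtc1 from -0.03 to 0.21, and that in abi4-102 from -0.01 to 0.03. Changes in vtc1 are hence relative to the bulk of transcripts on the array. Of the 6 leaf genes listed as rosette markers 4 were measured, at a summed intensity of 24520 in wild type, 21741 in vtc1 and 20473 in abi4-102. The root list had 2 of 3 genes measured at a summed intensity of 35.9, 30.4 and 29.1 in the same order. None of the listed flower, seed and epidermis genes was measured by a single-gene probe set.

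The members lay in a sparse corner of the plot of both changes. Their median change was -0.43 (log2) in vtc1, with a range of -1.67 to -0.30, and 0.42 in abi4-102, with a range of 0.30 to 1.34. The medians over all 22746 probe sets were -0.03 and -0.01. The vtc1 fall was the larger of the 2 changes in 39 of the 68 members. A change of more than 1 on the log2 scale was found in 1 member in vtc1 and in 2 members in abi4-102.

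**Figure D1:**
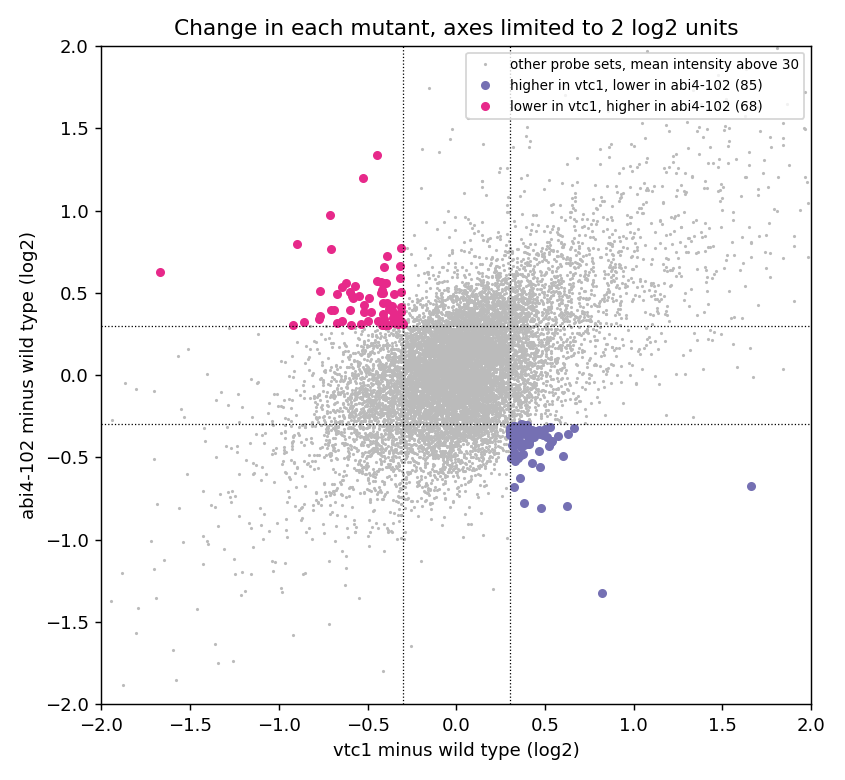
Change in vtc1 (horizontal, log2) against change in abi4-102 (vertical, log2) for each probe set with a mean intensity above 30; dotted lines mark 0.3 either side of wild type. The 68 members (pink, upper left) and the 85 probe sets of the reverse direction (purple, lower right) are few beside the grey cloud of all others.

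In the model across all probe sets (limma with Benjamini-Hochberg adjustment, called at an adjusted p under 0.05), 68 of 68 members were called lower in vtc1, where 36.6% of all probe sets were called, 18.5% lower and 18.1% higher. In abi4-102, 67 of 68 were called higher, where 34.9% of all probe sets were called and 18.8% were called higher. Both calls together were made for 67 members and for 1.38% of all probe sets. Set directly against each other, the mutants differed at 68 of 68 members, and of all probe sets 21.2% were called lower and 17.8% higher in vtc1 than in abi4-102. These counts follow from the rule, and both mutants were set against the same wild-type arrays. With arrays scaled on the spike-in controls, which were dimmer on the vtc1 arrays, 30 of the 68 were called lower in vtc1. The share of all probe sets called lower under that scaling is not given here, and the 18.5% above does not stand for it. That scaling moved every vtc1 change up by the same amount, less than the 0.3 of the rule, so none could cross the wild-type mean.

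Arrays of the 3 genotypes rarely overlapped among the members. Every vtc1 array lay below every wild-type array for 68 of 68 members, as for 21.7% of all probe sets. Every abi4-102 array lay above every wild-type array for 66 of 68, against 22.9% of all probe sets. The full order of vtc1, wild type and abi4-102, with no overlap on any array, held for 66 members and for 2.51% of all probe sets. AT2G37950 and AT5G28060 were the exceptions, each with 1 abi4-102 array inside the range of wild type. The median SD between replicates was 0.078 (log2) in wild type, 0.095 in vtc1 and 0.112 in abi4-102. For all probe sets above the intensity minimum it was 0.075, 0.074 and 0.089.

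Each mutant array was also left out of the choice in turn, so that its values played no part in it. The choices made without a vtc1 array held 75, 73, 61 and 72 probe sets for replicates 1 to 4, and the array left out lay below the wild-type mean at all of them. It lay below by more than 0.3 at 54, 52, 56 and 54. The choices made without an abi4-102 array held 59, 74 and 83 probe sets, and the array left out lay above the wild-type mean at 58, 74 and 81. It lay above by more than 0.3 at 49, 49 and 45. The median difference on the array left out was -0.51 to -0.40 for vtc1 and 0.31 to 0.46 for abi4-102. The same wild-type arrays served both the choice and the reading of the array left out, and the other replicates of that mutant stayed in the choice. These counts are hence not independent of the choice and are no test of the members. The share of all probe sets past these limits on each array is not given here.

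**Figure D2:**
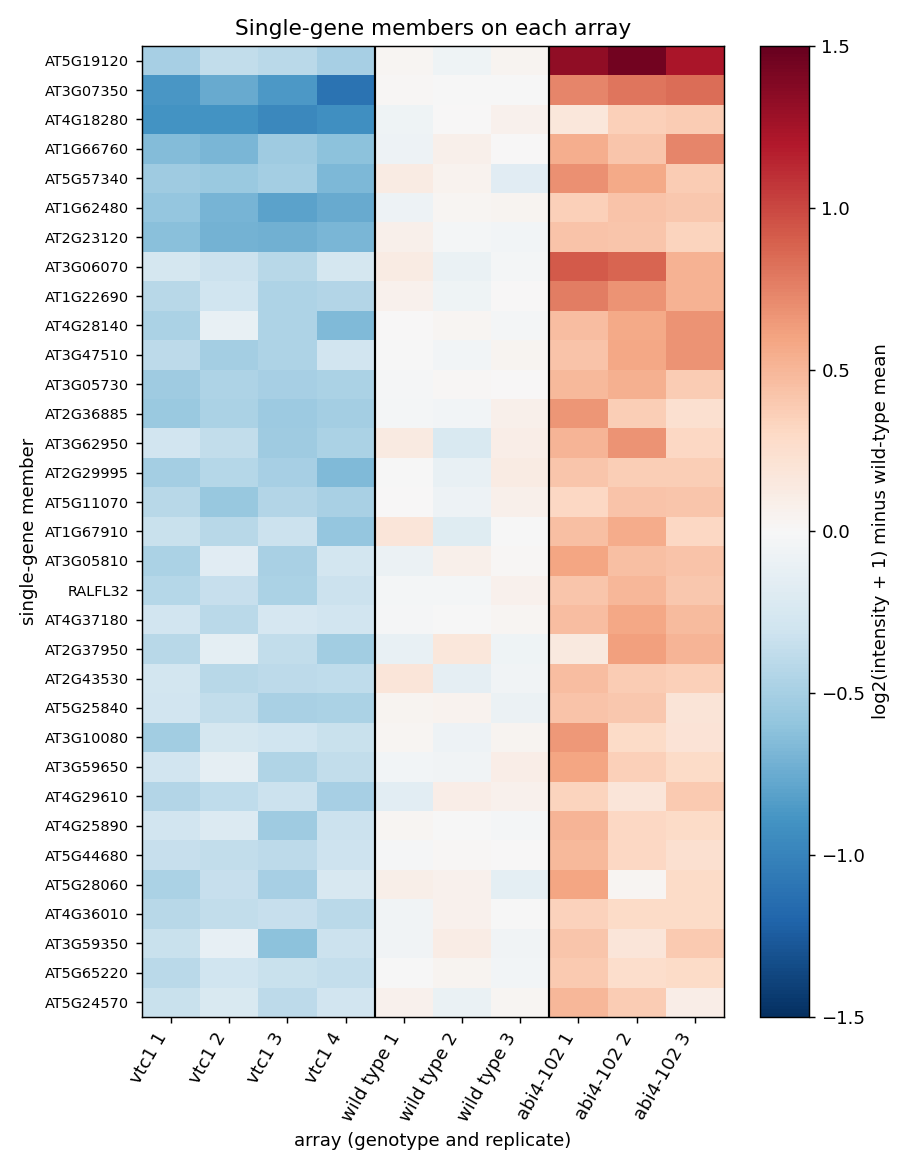
Log2(intensity + 1) minus the wild-type mean for the 33 single-gene members (rows, ordered by the difference between the mutants) on each array (columns, by genotype and replicate). The 4 vtc1 columns are blue and the 3 abi4-102 columns red, with the darkest red for AT5G19120 in abi4-102 and the darkest blue for AT3G07350 and AT4G18280 in vtc1.

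All 33 single-gene members are protein-coding genes of the nucleus, and RALFL32 is the only 1 with a symbol other than its locus code. The gene table gives no protein descriptions for the others, so the roles below are general knowledge of these loci. They were grouped by role after the members were known, and no count of a group is set against chance. No member gene had a 2nd probe set of its own.

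Small secreted proteins and peptide signals, pooled here from several families, took in 8 of the 33 genes. The share of such genes over the whole array is not known here, so the count is not read as a trait of the members. Plants use such short proteins, often rich in cysteine and cut from a precursor, as defence molecules and as signals between cells. RALFL32 belongs to the RALF peptides, which alkalinise the cell surface through receptor kinases. Its intensity was 99, 99.4 and 106 in wild type, 74.8, 79.8, 72.8 and 80.7 in vtc1, and 136, 143 and 135 in abi4-102. The groups did not overlap, as for 66 of the 68 members, and the changes were -0.39 (log2) in vtc1 and 0.44 in abi4-102. AT1G22690, of the gibberellin-regulated GASA peptide family, read 177, 162 and 171 in wild type, 128, 138, 123 and 125 in vtc1, and 291, 272 and 244 in abi4-102. It is also one of the guard cell markers listed for this work, and its rise of 0.66 in abi4-102 exceeded its fall of 0.40 in vtc1.

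Both defensin-like genes showed the same order. AT3G05730 read 408, 418 and 414 in wild type, 286, 299, 293 and 298 in vtc1, and 578, 601 and 539 in abi4-102. AT2G43530, of the defensin-like trypsin inhibitor family, was brighter, with 1164, 932 and 987 in wild type, 842, 768, 780.3 and 787 in vtc1, and 1406, 1333 and 1312 in abi4-102. At 414 bases it was the shortest member gene. AT2G29995, which encodes a precursor of the tyrosine-sulfated PSY growth peptides, went from 94.9 ± 8.06 (SD, n = 3) in wild type to 65.8 ± 4.43 (n = 4) in vtc1 and 124 ± 2.47 (n = 3) in abi4-102.

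The other genes of this group were placed in it by family, and where their proteins act was not tested. AT4G18280, related to glycine-rich cell wall proteins, had the largest vtc1 fall of the single-gene members. Its intensity was 326, 343 and 356 in wild type, 183, 183, 174 and 180.0 in vtc1, and 384, 438 and 445 in abi4-102. The fall of 0.92 (log2) in vtc1 was wide of the spread between arrays, while the rise of 0.30 in abi4-102 only just met the rule. AT4G36010, a thaumatin-like protein of the pathogenesis-related class, read 502 ± 19.4 in wild type, 385 ± 7.98 in vtc1 and 621 ± 13.3 in abi4-102. AT3G10080, a germin-like cupin, read 129.6 ± 5.8, 101 ± 7.76 and 171 ± 29.4, with abi4-102 replicate 1 at 204 against 158 and 149.8.

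The 3 genes of transport, ion binding and dehydration had vtc1 changes of -0.71 to -0.62 and abi4-102 changes of 0.39 to 0.56. AT2G23120, of the late embryogenesis abundant proteins, which accumulate in drying and cold tissue, was the brightest member. It read 2468, 2299 and 2272 in wild type, 1512, 1432, 1419 and 1456 in vtc1, and 3163, 3137 and 2963 in abi4-102. AT1G62480, related to vacuolar calcium-binding proteins, read 90.8, 97.1 and 98.4 in wild type, 63.5, 58.5, 54.4 and 56 in vtc1, and 122, 129 and 126 in abi4-102. The genotypes did not overlap for any of the 3 genes. AT1G66760, of the MATE efflux transporters, which export small organic molecules, read 47.6, 53.2 and 50.5 in wild type, 31.8, 30.8, 34.6 and 32.5 in vtc1, and 73.9, 67.3 and 84.1 in abi4-102.

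Among the enzymes, AT5G19120 had the largest abi4-102 rise of all members. This aspartyl protease family gene read 98.2, 92.2 and 98.9 in wild type, 68.1, 74.2, 72.6 and 67.7 in vtc1, and 244, 265 and 227 in abi4-102. That is 2.52-fold higher in abi4-102 and 1.36-fold lower in vtc1. AT3G62950, a CC-type glutaredoxin of the class that works with thiol groups in plant development and defence, read 86.5, 67.4 and 84.4 in wild type, 64.3, 61.1, 54.2 and 56.6 in vtc1, and 113, 126 and 98 in abi4-102. Its lowest wild-type array stood only just above the highest vtc1 array. AT4G29610, a cytidine deaminase family gene, read 71.3 ± 6.91, 53.3 ± 2.77 and 88.1 ± 6.67 in wild type, vtc1 and abi4-102. AT5G44680, of the DNA glycosylases, which remove damaged bases, read 202 ± 2.24, 158 ± 4.08 and 258 ± 23.1.

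The 4 members with roles in transcription and signalling had changes of -0.43 to -0.31 in vtc1 and of 0.33 to 0.57 in abi4-102. AT4G28140 is an AP2/ERF transcription factor, of the family to which ABI4 belongs. It read 51.1 ± 1.09 (SD, n = 3) in wild type, 36.4, 47.2, 36.9 and 32.1 in vtc1, and 70.9, 76.1 and 82.2 in abi4-102, with vtc1 replicate 2 closest to wild type. AT4G37180, a MYB-like factor of the GARP family, read 205, 206 and 212 in wild type, 169.7, 157, 174 and 169 in vtc1, and 287, 311 and 289.9 in abi4-102. AT2G37950 has a RING-type zinc finger. It was the dimmest member at 30.5 ± 3.42 in wild type, 23.6 ± 2.82 in vtc1 and 41.4 ± 6.91 in abi4-102, and abi4-102 replicate 1 (33.7) lay below wild-type replicate 2 (34.4). Its call in vtc1 was lost with wild-type replicate 2 left out (log2 change -0.27), with vtc1 replicate 4 left out (-0.31) and with a pseudocount of 16 (-0.23), and its call in abi4-102 with abi4-102 replicate 2 left out (0.33). The protein kinase AT3G59350 read 141 ± 9.39, 111 ± 15.6 and 177 ± 15.1 in wild type, vtc1 and abi4-102. Its call in abi4-102 was lost without abi4-102 replicate 1 or 3 (0.29 and 0.30), without wild-type replicate 1 or 3 (0.30 each) and under quantile normalization (0.27).

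Ribosomal proteins of all 3 compartments of the plant cell were among the members. The plastid large-subunit protein AT5G65220 read 1488, 1544 and 1454 in wild type, 1129, 1218, 1185 and 1171 in vtc1, and 1964, 1792 and 1826 in abi4-102. AT4G25890, an acidic stalk protein of the cytosolic large subunit, read 205 ± 4.8 in wild type, 162 ± 15.4 in vtc1 and 265 ± 22.6 in abi4-102. The mitochondrial ribosomal family gene AT3G59650 read 92.9 ± 5.45, 74.9 ± 7.1 and 124 ± 14.3. AT5G28060, a protein of the cytosolic small subunit, read 616, 608 and 523 in wild type, 417, 457, 412 and 492 in vtc1, and 875, 594 and 707 in abi4-102. Its abi4-102 replicate 2 fell within wild type, and it was the 1 member not called there (log2 change 0.30, adjusted p = 0.052 by limma). Without that array its change was 0.44 and it was called. The 4 genes spanned 1100 to 1518 bases.

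For the last 10 genes no role is given. AT3G07350, of a family with a conserved domain of unknown function, ranked 1st by the smaller of its 2 changes. It read 152, 149 and 149 in wild type, 81.3, 88.7, 82.2 and 68.9 in vtc1, and 249.9, 263 and 269.7 in abi4-102, or -0.90 and 0.79 on the log2 scale. AT5G57340 read 106, 100.3 and 86.1 in wild type, 66.5, 65.4, 67.9 and 60.2 in vtc1, and 157, 144 and 126 in abi4-102, and at 3348 bases it was the longest member gene. AT3G06070 read 105, 89.9 and 94.5 in wild type, 80.3, 76.8, 72.2 and 80.1 in vtc1, and 182, 177 and 139 in abi4-102, so that its abi4-102 rise of 0.77 was the larger change. Without wild-type replicate 1 its vtc1 change was -0.25 and not called.

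The remaining 7 had vtc1 changes of -0.52 to -0.31 and abi4-102 changes of 0.33 to 0.56. AT3G47510 read 88 ± 2.61 in wild type, 65.9 ± 4.51 in vtc1 and 130.4 ± 11.1 in abi4-102. AT2G36885 read 114 ± 5.6, 79.1 ± 1.99 and 154 ± 24.1 in the same order. AT5G11070 read 282 ± 14.6, 202 ± 9.36 and 369 ± 17. The genotypes did not overlap for any of the 7 genes, as for 66 of the 68 members. AT3G05810, which carries an IGR motif, read 80.5 ± 4.62, 63 ± 6.91 and 114 ± 7.4. AT1G67910 read 84 ± 10.8, 62.6 ± 5.2 and 114 ± 9.69. AT5G25840 read 149 ± 8.3, 112 ± 7.79 and 189 ± 16.1. AT5G24570, a gene of 452 bases, read 289.6 ± 17.4, 233 ± 10.8 and 365 ± 51.4, and was not called in abi4-102 without abi4-102 replicate 1 (0.24).

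The 34 probe sets without a gene were chosen by the same rule as the named ones, which fixed the direction of both changes. Their median change was -0.54 in vtc1 and 0.47 in abi4-102, against -0.41 and 0.41 for the single-gene members. The largest vtc1 fall of any member was that of probe set 245928_s_at, which read 245, 236 and 195 in wild type, 75.5, 68.2, 68.9 and 66.9 in vtc1, and 359.8, 358 and 324 in abi4-102. Its suffix marks probes that can take up several transcripts, as do those of 4 members in all. Probe set 266743_at had the largest abi4-102 rise among them, from 32.9, 37.1 and 35.5 in wild type to 96.8, 83.4 and 67.7 in abi4-102, with 26.6, 19.9, 25.1 and 25.3 in vtc1. In both, as in all 34, every genotype was separate from the others.

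The 3 single-gene members nearest the threshold were AT5G28060 (-0.39 in vtc1, 0.30 in abi4-102), AT4G18280 (-0.92 and 0.30) and AT4G29610 (-0.41 and 0.30), all close to it in abi4-102. Just outside, on the vtc1 side, were AT3G17120 (-0.29 in vtc1, 0.31 in abi4-102), AT2G14460 (-0.29 and 0.41) and AT2G37600 (-0.29 and 0.30). A further 4 probe sets met both differences but not the intensity minimum, among them AT4G17470, with a mean intensity of 23.0.

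Gene length, which the rule did not use, set the members apart from most genes on the array as a description. Length here is the span of the gene in the TAIR10.1 gene table, introns included. The 33 genes had a median length of 1290 bases, with quartiles of 976 and 1719. For the 6862 genes with a mean intensity above 30 the median was 2328 bases, with quartiles of 1708 and 3235. Under 1500 bases were 20 of the 33 members (60.6%), against 18.2% of the 6862 genes. Over 3000 bases was 1 member (3.03%), against 30.4%. The 3 genes with both changes above 0.5 had 1606 bases (AT3G07350), 2562 (AT1G66760) and 3348 (AT5G57340). AT3G07350 lay below the lower quartile of the 6862 genes, and AT1G66760 and AT5G57340 lay above their median.

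Genes of the reverse direction were long. The 39 genes higher in vtc1 and lower in abi4-102 by the same thresholds had a median length of 4771 bases, and the shortest of them, at 2371 bases, was longer than 29 of the 33 members. Genes that met only 1 side of the rule lay between. The 687 genes lower in vtc1 with abi4-102 within 0.3 of wild type had a median of 1830 bases, and the 715 genes higher in abi4-102 with vtc1 within 0.3 had one of 1857 bases. A single RefSeq transcript was listed for 22 of the 33 members (66.7%), against 50.9% of the 6862 genes and 35.9% of the reverse group. No test over genes was made for these differences.

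**Figure D3:**
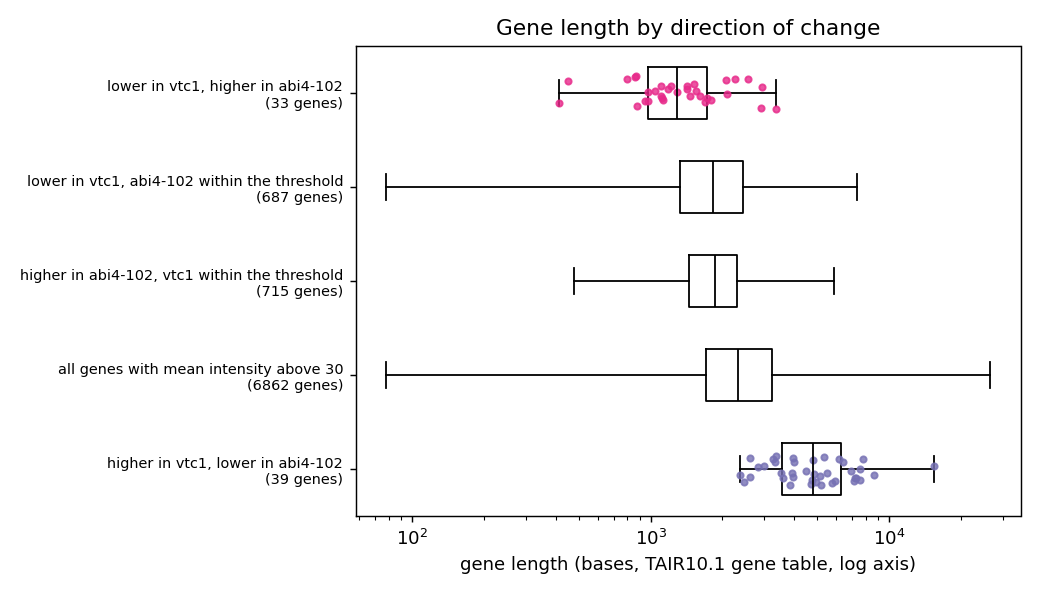
Gene length in bases (horizontal, log axis) for genes grouped by direction of change; boxes give quartiles and median, whiskers the full range, and points the single genes of the 2 small groups. The members have a median of 1290 bases and the reverse group one of 4771 bases, on either side of the 2328 bases of all genes.

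The same relation ran through genes that were not members. The 6862 genes were put in 5 length classes of equal size, and the members and the reverse group were set aside. In the shortest class, up to 1559 bases, the median change of 1351 genes was -0.10 in vtc1 and 0.16 in abi4-102. In the longest class, from 3499 bases, that of 1341 genes was 0.07 in vtc1 and -0.17 in abi4-102. The 3 classes between followed in order in both mutants. Of the 33 members, 22 fell in the shortest class and none in the longest, which held 30 of the 39 reverse genes. Across the 6862 genes, Spearman's rho of length was 0.19 with the vtc1 change, -0.37 with the abi4-102 change and 0.54 with the difference of vtc1 from abi4-102. These genes were read on the same 10 arrays and are not independent.

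**Figure D4:**
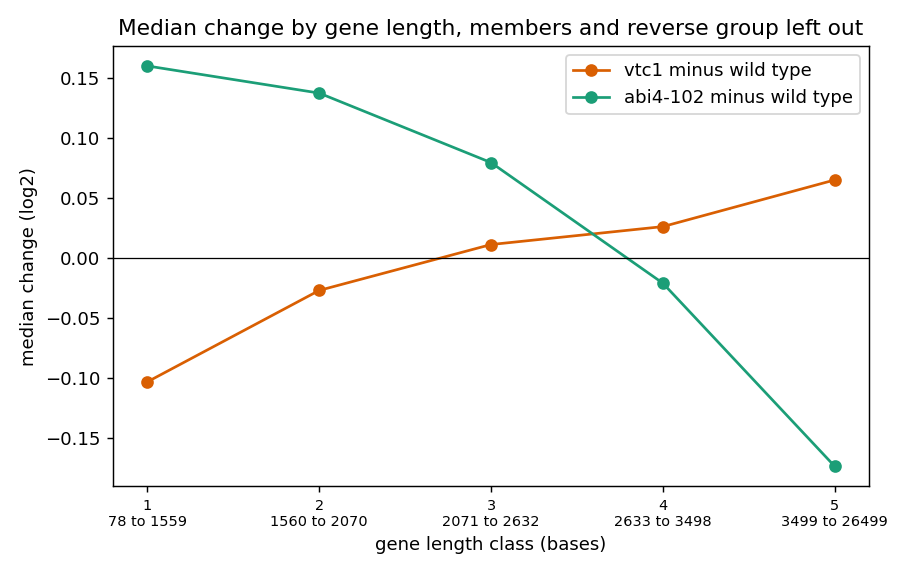
Median change against wild type (log2) in each of 5 gene length classes, from shortest to longest, with the members and the reverse group left out. The abi4-102 line runs from 0.16 down to -0.17 and the vtc1 line from -0.10 up to 0.07.

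The length difference was present on every mutant array. The median of the shortest class minus that of the longest, each relative to the wild-type mean, was -0.18, -0.16, -0.16 and -0.15 (log2) on vtc1 replicates 1 to 4. It was 0.32, 0.33 and 0.33 on the abi4-102 arrays and 0.03, 0.01 and -0.04 on the wild-type arrays. The genotypes did not overlap, and the mutants lay on opposite sides of wild type. Scaling an array as a whole does not move this difference, and under quantile normalization it was -0.15 for vtc1 and 0.32 for abi4-102. It was also present at every brightness. In the lowest, middle and highest class of intensity the shortest genes had median vtc1 changes of -0.09, -0.10 and -0.12 and abi4-102 changes of 0.11, 0.21 and 0.16. The longest genes had medians of 0.05, 0.09 and 0.07 in vtc1 and -0.17, -0.18 and -0.16 in abi4-102.

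**Figure D5:**
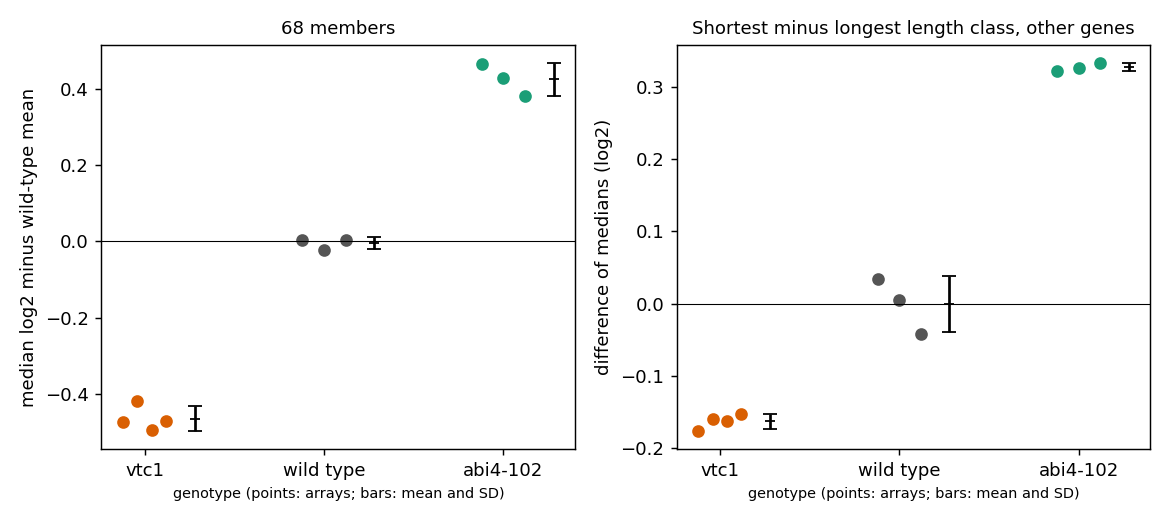
Left, the median over the 68 members on each array (log2 minus the wild-type mean); right, the median of the shortest minus that of the longest length class, members and reverse group left out; points are arrays, bars the mean and SD. The members sit at -0.50 to -0.42 on vtc1 and 0.38 to 0.47 on abi4-102 arrays, and the length difference at -0.18 to -0.15 and 0.32 to 0.33.

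Control genes read at both ends give a measure of RNA integrity. The 3' minus 5' difference of the actin control was 1.83 ± 0.23 (log2, SD, n = 3) in wild type, 1.48 ± 0.11 (n = 3) in abi4-102 and 1.57 ± 0.07 (n = 4) in vtc1. That of ubiquitin was 1.07 ± 0.08, 0.92 ± 0.05 and 1.03 ± 0.09, and that of GAPDH 0.40 ± 0.08, 0.29 ± 0.21 and 0.27 ± 0.10. The mutant arrays did not overlap wild type for actin, and neither did those of abi4-102 for ubiquitin, while the other control values overlapped. The part of RNA integrity or of array processing in the length relation was not tested.

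The 33 single-gene members were spread over all 5 chromosomes, and the other members were not placed. Chromosomes 1 to 5 held 4, 5, 9, 7 and 8 of the 33 genes, or 12.1%, 15.2%, 27.3%, 21.2% and 24.2%, where 26.0%, 14.3%, 20.4%, 14.3% and 23.9% of the 6862 genes lay. Only AT3G05730 and AT3G05810 on chromosome 3 lay within 20 places of each other in the order of genes, at 16 places apart.

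The pathways for which the mutants are named were little covered by the annotation. Of 10 listed ascorbate synthesis genes 5 were measured and none was a member: 1 was called higher and 2 lower in vtc1, and 1 higher and 1 lower in abi4-102. VTC4, a phosphatase of ascorbate synthesis, was lower in both mutants, with changes of -0.55 and -0.52, and PMM, a phosphomannomutase of the same route, was higher in both, with 0.58 and 0.43. Of 24 listed abscisic acid genes 2 were measured and neither was a member. COR47, a dehydrin induced by cold and drought, was called lower in both mutants (-1.04 in vtc1 and -0.28 in abi4-102). LEA4-5, a late embryogenesis abundant protein like the member AT2G23120, was called lower in abi4-102 (-0.44) and not in vtc1 (-0.22). In the guard cell list 2 of 9 genes were measured, with a summed intensity of 218 in wild type, 172 in vtc1 and 315 in abi4-102. That order is that of AT1G22690, a member chosen for it. The other measured gene, FMA, a transcription factor of the guard cell lineage, read 48.4 in wild type, 43.9 in vtc1 and 45.8 in abi4-102, and was called in neither mutant (log2 changes -0.14 and -0.08). In the phloem list 1 of 7 genes was measured. This gene, AT5G18600, read 1069 in wild type, 923 in vtc1 and 1460 in abi4-102. It moved in the directions of the members but missed the vtc1 threshold (-0.21 and 0.45). In whole rosettes, more cells of a type and more RNA per cell cannot be told apart, and the part of such cell types in the members' values was not tested.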

How the data were processed

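The deposited table holds 1 linear intensity per probe set and array (22810 probe sets, 10 arrays). The authors' probe summary and scaling are not given in the sources used. After 64 control probe sets were set aside, intensities were taken as log2(value + 1), which understates changes of dim probe sets; the arrays were not normalized again. Genotype was the only term of 1 linear model over all arrays (limma 3.58.1, R 4.3.3), checked on simulated data. P-values were two-sided and adjusted over 22746 probe sets. Tables and plots used Python 3.11.15, pandas 2.3.3 and matplotlib 3.10.9. The precision is limited by the number of arrays.

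Genes came from the platform annotation, updated through the TAIR10.1 gene table. Of the probe sets, 13513 carried 1 gene, 503 several and 8730 were unnamed here. Where a gene had more than 1 probe set, its brightest stood for it in the length results. All 33 single-gene members matched the gene table. The naming rule took the 12 with the largest smaller-of-2 change, members with a symbol and those nearest the thresholds. The other single-gene members were named after their values were seen. Members and lists were chosen with earlier results of these data known. Function groups by keyword could not be used, since only 1 member had a descriptive name. Promoter and protein sequences were not analysed here. Correlations of deviations between same-numbered replicates were -0.08 to 0.16, median -0.02, over 9 pairs. Over 24 differently numbered pairs they were -0.17 to 0.11, median 0.01. Same-numbered pairs of wild type and vtc1 gave 0.11, 0.08 and 0.16, above every differently numbered pair of these genotypes (highest 0.07). Same-numbered pairs of the mutants were all negative, at -0.06, -0.08 and -0.07. No test of a shared deviation was made on these correlations.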

Additional observations from a re-analysis of the deposited data

How the results depend on the processing

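The result most open to processing was the fall in vtc1. Under spike-in scaling 30 of the 68 members were called lower in vtc1 and 30 in both mutants. The share of all probe sets called under it is not given here, and their median vtc1 change was then 0.21. The rule was then met by 28 probe sets, 24 of them members. All 68 stayed below the wild-type mean in vtc1, which was fixed, since this scaling moved each change by the same amount, less than 0.3. Of the 33 single-gene members 10 kept their vtc1 call: AT3G07350, AT1G66760, AT5G57340, AT3G05730, AT2G36885, AT2G23120, AT1G62480, AT2G29995, AT5G11070 and AT4G18280. The rule was met by 41 probe sets with an intensity minimum of 100 and by 10 with differences above 0.5. The median gene length of the 3 single-gene members left by the last was 2562 bases. It was 1109 bases for the 7 genes chosen under spike-in scaling and 1355 for the 34 with no intensity minimum. Leaving out 1 array at a time left 59 to 83 probe sets meeting the rule. The replicate number as a block, in which vtc1 replicate 4 drops out of the contrasts, turned no change of a single-gene member around and added the abi4-102 call of AT5G28060 (adjusted p = 0.046 by limma). No change of a single-gene member reversed under any alternative run. Under spike-in scaling this was fixed in the same way. It was also fixed with array medians subtracted, which moved each change by the same amount, less than 0.3. A spread estimate that followed intensity left the changes themselves as they were. Since the rule asked for changes above 0.3, the lack of reversals is a description and no support for the members. The alternative by protein length was not run. The alternatives for the length classes were chosen after seeing the data, and the difference between shortest and longest genes was -0.19 to -0.14 in vtc1 and 0.28 to 0.35 in abi4-102 over them.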
